A study of Mus musculus with 6 samples.

Results

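Expression of 38 genes of endothelial cells and vessels was compared between isolated pancreatic islets of 3 Vhlh knockout and 3 control samples, each on 1 Affymetrix mouse array. The genes are junction and surface proteins, secreted factors, receptors with their ligands and transcription factors. Every probe set with a single gene symbol was collected for each gene, and the probe set of highest mean log2 signal over the 6 arrays stood for it. All 38 genes had such a probe set, among 18193 genes measured.

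The knockout samples came from a conditional model in which Vhlh fl/fl alleles are deleted in beta cells by RIP2-Cre, a Cre recombinase under the rat insulin promoter. The labels name this model for all 6 samples, so which of its alleles the samples labelled control carried was not stated. Samples numbered 01, 02 and 03 came from mice of 26, 20 and 18 weeks in each genotype, recorded as male, female and male, so number, age and recorded sex go together. Each sample was a batch of islets, with an unstated number of mice behind it, so p-values measure the spread between batches.

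Islets are perfused by a dense net of fenestrated capillaries, whose endothelial cells supply basement membrane and signals to beta cells and carry insulin away. Endothelial cells are held together by VE-cadherin, PECAM-1 and claudins. Their quiescence and sprouting are set by angiopoietins acting on Tie receptors, by apelin, Notch and BMP signals, and by ETS and SoxF transcription factors. Vhlh (Vhl in the annotation) is the gene of the von Hippel-Lindau protein, a part of the ligase that targets hypoxia-inducible factors for degradation. The insulin promoter directs Cre to beta cells, so the comparison asks what endothelial transcripts do in islets whose beta cells lack the protein.

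The arrays carried the authors' MAS5 signal with a common scale, and array medians lay between 102 and 123 signal units. The brighter Vhl probe set read 457, 639 and 839 in controls and 344, 358 and 467 in knockouts, a log2 difference of -0.70 (SE 0.32; limma adjusted p 0.9998), and the knockout was lower in all 3 same-numbered pairs. The position of that probe set with respect to the deleted exons was not analysed here. Beta-cell markers were bright on all arrays, with a summed signal of 125229 to 169085 in controls and 100101 to 171647 in knockouts over 9 genes measured. Acinar markers set the samples numbered 03 apart: over 11 genes the summed signal was 96503 on control 03 and 9735 on knockout 03, against 387435 to 545524 on the other 4 arrays. Results are therefore also given without both of those arrays.

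Endothelial genes as a group sat above their control level in the knockout islets by a small amount. The genes were chosen with earlier results of these data known. A positive log2 difference was found for 32 of the 38 genes, where 51.6% of all genes measured were above 0. The median log2 difference was 0.34, with quartiles of 0.22 and 0.66, beside a median of 0.01 and quartiles of -0.26 and 0.33 over all 18193 genes. In islet RNA, a greater number of endothelial cells cannot be told apart from more RNA of these genes per cell. As the arrays share a common scale, a smaller share of RNA from other cells cannot be told apart from these either.

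Single genes were not separated by the test. A gene was tested if at least 3 of its 6 signals exceeded their array's median, as was so for 34 of the 38. With limma, 0 of these 34 passed an adjusted p of 0.05, where 2 of 11610 genes tested passed, 0.0172%, and the adjusted p was 0.9998 for each of the 34. At an unadjusted p under 0.05 there were 2, Cd34 and Aplnr, both higher, where 1.99% of the genes tested were higher and 0.594% lower at that level. That fit left out the sample numbers, which the replicate block adds. With the replicate block there were 3, Cd34, Aplnr and Mmrn2, where 3.65% of genes tested were higher and 1.37% lower. Again 0 passed after adjustment (6 of all genes tested, 0.0517%).

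Every knockout signal lay above every control signal for 6 of the 38 genes: Cd34, Cdh5, Egfl7, Erg, Vwf and Angpt1. That held for 4.52% of all genes measured. When all probe sets of a gene were averaged it held for 3 of the 38, Vwf, Cd34 and Notch4, beside 4.60% of all genes. Angpt2 was then lower without overlap, beside 3.62% of all genes. For Notch4 and Angpt2, only probe sets dim on all 6 arrays were themselves without overlap. The averages of Cdh5, Erg and Angpt1 also took in sets dim on all 6 arrays. With 1 probe set per gene, every knockout signal lay below every control signal for 0 of the 38, beside 3.15% of all genes measured. Compared within same-numbered pairs, the knockout was higher in 3 of 3 pairs for 14 of the 38 genes, beside 13.9% of all genes, and lower in 3 of 3 for 1, Tie1, beside 11.1%.

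**Figure D1:**
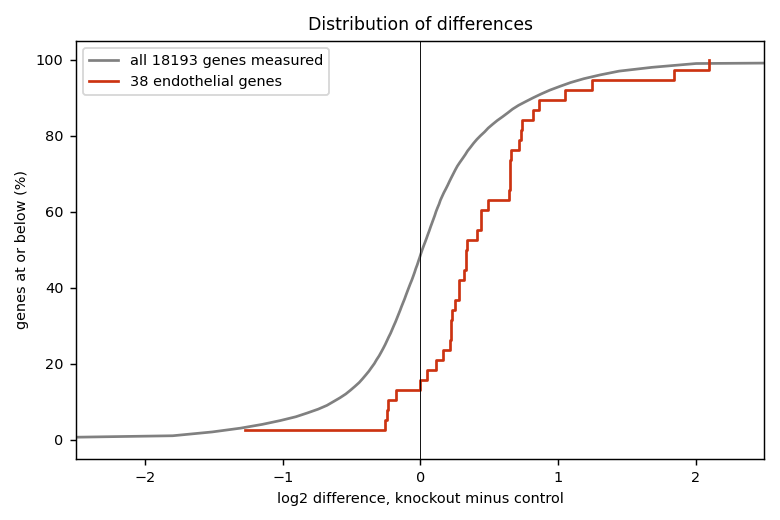
Cumulative share of genes (%) against the log2 difference, knockout minus control, for the 38 endothelial genes (red steps) and all 18193 genes measured (grey line); the axis is limited to the range between -2.5 and 2.5. The endothelial curve lies to the right, with a median of 0.34 against 0.01, and both curves overlap widely.

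**Figure D2:**
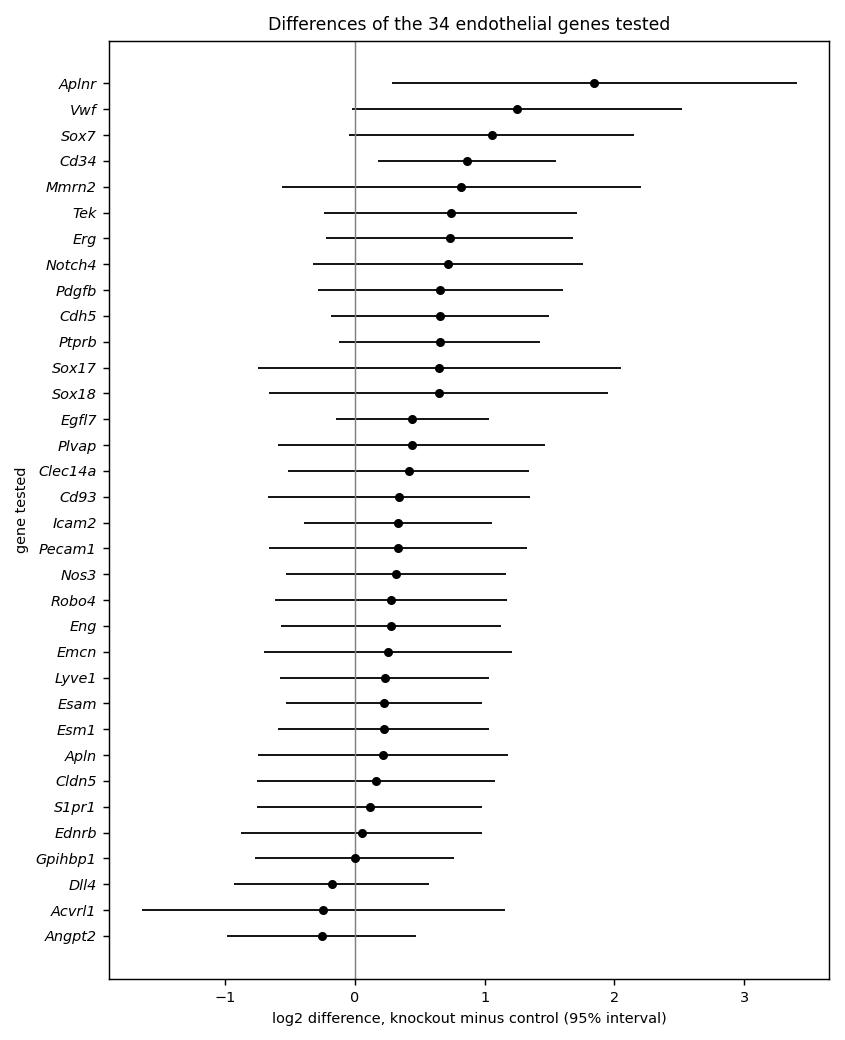
Log2 differences, knockout minus control, of the 34 endothelial genes tested, with limma's 95% intervals (n = 3 arrays per group). The intervals of Cd34 and Aplnr lie above 0, those of the other 32 cross it, and none of the 34 passed after adjustment over all genes tested.

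Promoters are shown for the 3 genes without overlap that had an entry in the RefSeq promoter table, Cd34, Egfl7 and Erg. The table (RefSeq, GRCm38.p6) held 17 of the 38 genes, and each window runs from 250 bases before to 50 bases after an annotated start. Egfl7 and Erg have 3 such windows each, of which the first listed is shown. Capitals mark CAGGAA or its complement TTCCTG, a form of the core bound by ETS factors such as the product of Erg.
Cd34, chr1:194938571-194938870, plus strand: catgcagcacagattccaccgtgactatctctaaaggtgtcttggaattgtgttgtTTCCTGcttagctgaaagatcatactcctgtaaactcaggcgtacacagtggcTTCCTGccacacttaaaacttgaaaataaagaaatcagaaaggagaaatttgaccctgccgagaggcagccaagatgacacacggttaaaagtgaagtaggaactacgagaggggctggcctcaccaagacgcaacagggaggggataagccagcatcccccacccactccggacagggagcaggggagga
Egfl7, chr2:26580833-26581132, plus strand: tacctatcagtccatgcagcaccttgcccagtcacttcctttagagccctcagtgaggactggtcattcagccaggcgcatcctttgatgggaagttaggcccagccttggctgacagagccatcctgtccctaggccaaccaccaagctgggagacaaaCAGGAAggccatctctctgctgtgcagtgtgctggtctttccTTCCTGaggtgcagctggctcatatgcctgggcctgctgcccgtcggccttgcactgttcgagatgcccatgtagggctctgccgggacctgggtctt
Erg, chr16:95586544-95586843, minus strand: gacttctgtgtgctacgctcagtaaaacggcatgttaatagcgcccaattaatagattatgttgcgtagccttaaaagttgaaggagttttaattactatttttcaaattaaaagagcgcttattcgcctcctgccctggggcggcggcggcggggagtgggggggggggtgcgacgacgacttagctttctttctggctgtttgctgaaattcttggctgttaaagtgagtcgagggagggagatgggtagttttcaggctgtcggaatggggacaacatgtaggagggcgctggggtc

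The Cd34 window held CAGGAA on its opposite strand at positions -194 and -141 from the start. The Egfl7 window held it at -90 on the same strand and at -48 on the opposite strand. The Erg window had no match to CAGGAA. Searched on both strands, CAGGAA was in 14 of the 21 windows of the 17 genes and in 30.6% of all 32851 windows in the table. CCGGAA, another ETS form, was in 0 of the 21 and in 14.9% of all windows. ACGTG, a form of the core of the hypoxia response element, was in 2 of the 21 and in 19.6% of all, and TATAAA in 1 and in 13.6%. Other forms of the hypoxia response and ETS cores were not searched. None of the 4 motifs contains another. These are matches of letters in a short window, with no measurement of binding.

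Among the junction and adhesion genes, Cdh5 was the one whose groups did not overlap. Cdh5 encodes VE-cadherin, the adhesion molecule of endothelial junctions. Its signals were 123, 127 and 144 in controls and 218, 168 and 241 in knockouts. All 3 knockouts exceeded all 3 controls, and the controls were close together, at 7.04 ± 0.12 for controls and 7.69 ± 0.27 for knockouts (log2 signal ± SD, n = 3 arrays per group). The log2 difference was 0.65 (SE 0.37, a 1.57-fold ratio, limma adjusted p 0.9998), and it was 0.82, 0.40 and 0.74 in the pairs numbered 01, 02 and 03. The mean over its 2 probe sets was higher still, at 1.32, but the second one was below the array median on all 6 arrays.

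Pecam1, which encodes PECAM-1 on endothelial cells, platelets and leukocytes, read 131, 165 and 93.6 in controls and 119.9, 163 and 205 in knockouts. Those groups overlapped, and the knockout was above its control in the pair numbered 03 alone. The log2 difference was 0.33 (95% interval from -0.66 to 1.32), and -0.07 without the arrays numbered 03. Icam2, a leukocyte ligand on endothelium, differed by 0.33 with signals of 240.1, 232 and 213 in controls and 310.0, 347 and 222 in knockouts. Its knockouts were higher in 3 of 3 pairs, though knockout 03 fell inside the control range. Esam, a tight junction adhesion molecule, differed by 0.22 and Cldn5, the main claudin of endothelium, by 0.16, each with overlapping groups and an interval across 0. The pairs numbered 01 and 03 went opposite ways for both genes, at -0.68 and 1.04 for Esam and at 0.28 and -0.40 for Cldn5. Without knockout 02 the difference of Cldn5 was -0.07.

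Of the surface glycoproteins and receptors, Cd34 had the lowest p of all 34 genes tested. Cd34 encodes a sialomucin of endothelial and blood progenitor cells. The signals were 322, 409.7 and 365 in controls and 479, 718 and 845 in knockouts. Each knockout exceeded the highest control, with 8.51 ± 0.17 for controls and 9.37 ± 0.42 for knockouts (log2 signal ± SD, n = 3 arrays per group). The ratio was 1.82-fold, a log2 difference of 0.86 with an SE of 0.31 and a 95% interval from 0.18 to 1.55. The unadjusted limma p was 0.0192 and the adjusted p 0.9998, and the difference was 0.57, 0.81 and 1.21 in the 3 pairs and 0.69 without both arrays numbered 03.

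The other 7 genes of this role had overlapping groups. Plvap, which encodes the protein of the diaphragms of fenestrated capillaries, read 1016, 1125 and 2142 in controls and 3187, 992 and 1924 in knockouts. Knockout 01 was the highest array and knockout 02 the lowest, so the difference of 0.44 rests on 1 pair. Lyve1, a hyaluronan receptor of lymphatic vessels that macrophages can also carry, read 2204, 1065 and 890.2 in controls and 1568, 1473 and 1457 in knockouts, and control 01 was its highest array. Its difference of 0.23 was -0.01 without both arrays numbered 03, and the second Lyve1 probe set differed by 0.24.

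Emcn, an endothelial sialomucin of capillaries and veins, read 596, 545 and 691 in controls and 467, 556 and 1471 in knockouts. Knockout 03 stood far above the rest, and without it the difference of 0.26 turned to -0.25. Clec14a, a lectin-like receptor, and Cd93, a related receptor, differed by 0.41 and 0.34, each higher in 3 of 3 pairs. With 1 array left out the difference of Clec14a ran from 0.13 without knockout 02 to 0.78 without control 02, and it was 0.14 without control 03. The difference of Cd93 was -0.06 without knockout 03. Robo4, a Roundabout receptor that stabilises vessels, differed by 0.28, and Gpihbp1, which holds lipoprotein lipase on capillaries, by -0.0011 with a 95% interval from -0.77 to 0.76.

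**Figure D3:**
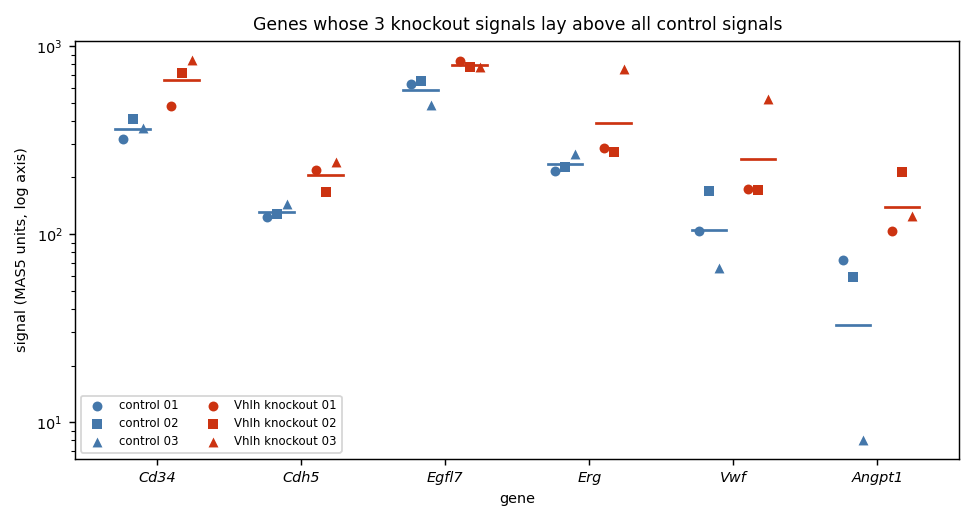
Signals (MAS5 units, log axis) of the 6 endothelial genes whose 3 knockout arrays (red) all lay above the 3 control arrays (blue); symbols give the sample number and lines the geometric mean. Knockout 03 is far above the others for Erg and Vwf, and the Angpt1 signal of control 03, 8.08, is far below all others.

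Of the 4 genes for secreted proteins, 3 were above their control in every pair. Egfl7 encodes a matrix-bound factor of sprouting vessels. Its signals were 629, 648 and 486 in controls and 829.8, 775 and 775 in knockouts, with a narrow spread in knockouts, at 9.19 ± 0.23 for controls and 9.63 ± 0.06 for knockouts (log2 signal ± SD, n = 3 arrays per group). No knockout reached down to the highest control. The log2 difference was 0.44 (SE 0.26, 1.36-fold, limma adjusted p 0.9998). Its probe set carries the suffix _x_at, given to probes that can cross-hybridise; with such sets left out the difference was 0.61, again without overlap. Of the 4 Egfl7 probe sets, the dimmest went the other way, at -0.34.

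Vwf, which encodes von Willebrand factor, the clotting protein stored in endothelial cells and platelets, read 104, 169 and 66.3 in controls and 174, 171 and 524 in knockouts. Knockouts 01 and 02 exceeded control 02 by a narrow margin, and knockout 03 stood far above all other arrays. The log2 difference of 1.25 (SE 0.56, 95% interval from -0.02 to 2.52) was 0.72 without that array. Vwf exceeded the array median on 1 control and 3 knockout arrays, so it entered the test mainly through its knockout signals, as did Sox7.

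Mmrn2, an endothelial matrix protein that binds VEGF, read 1076, 1288 and 3489 in controls and 3102, 1291 and 6648 in knockouts, with a difference of 0.82 (SE 0.61). The pair differences were 1.53, 0.00 and 0.93, and with the replicate block the unadjusted limma p was 0.0301 (adjusted p 0.922). Its other probe sets differed by 0.00079, 0.50 and 0.56. Esm1, or endocan, a marker of tip cells at the front of sprouting vessels, read 2513, 1551 and 2379.7 in controls and 1722, 2191 and 3895 in knockouts. Those groups overlapped, the difference was 0.22 (95% interval from -0.59 to 1.03), and it was -0.11 without knockout 03.

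The angiopoietin system differed from gene to gene. Angpt1 encodes the agonist of the Tie2 receptor that keeps vessels quiescent and is made mainly by mural and stromal cells. Its signals were 73.1, 59.2 and 8.08 in controls and 103, 214 and 124 in knockouts. All knockouts lay above all controls, but 4 of the 6 signals were below the array median, so Angpt1 was not tested, and its log2 difference of 2.10 rests on dim values and on control 03. Without control 03 it was 1.09, and with 32 units added to each signal 1.25. The second Angpt1 probe set, dim on all 6 arrays, differed by 0.18.

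Angpt2, the vessel-destabilising antagonist that sprouting and hypoxic endothelium releases, had a negative difference. It read 471, 317 and 355 in controls and 362, 233 and 368 in knockouts, with knockout 02 the lowest and control 01 the highest array. The log2 difference was -0.26 with a 95% interval from -0.99 to 0.47, and pair values were -0.38, -0.44 and 0.05. The second Angpt2 probe set, dim on all 6 arrays, was at -1.44, with all 3 knockouts below all controls.

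Tek, which encodes the receptor Tie2, read 331, 380.0 and 228 in controls and 265, 662 and 757 in knockouts. Knockouts 02 and 03 stood above all controls and knockout 01 among them, for a difference of 0.74 (SE 0.43). Ptprb, the endothelial phosphatase that restrains Tie2 signalling, read 1319, 1662 and 1023 in controls and 1536, 1795 and 3163 in knockouts. Control 02 exceeded knockout 01, so the groups overlapped, but the knockout was higher in 3 of 3 pairs. Its difference was 0.65 (SE 0.34), and a second bright probe set differed by 0.67 without overlap. Without knockout 03, the highest array, the difference by the first was 0.34. Tie1, an orphan relative of Tie2, was below the array median on all 6 arrays, with signals of 90.1, 62.4 and 101 in controls and 84.5, 46.3 and 89.5 in knockouts, and was the gene lower in 3 of 3 pairs. Its difference of -0.23 was 0.07 without knockout 02.

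The apelin receptor had the largest difference of the 34 endothelial genes tested, and its ligand a small one. Aplnr, a receptor of veins and sprouting endothelium, read 131, 84.4 and 229 in controls and 202, 384 and 1520.3 in knockouts. Knockout 03 stood far above all other arrays, knockout 02 was above all controls, and control 03 exceeded knockout 01. The log2 difference was 1.85 (SE 0.69, 95% interval from 0.29 to 3.41, unadjusted limma p 0.0252), with 0.62, 2.19 and 2.73 in the 3 pairs. It was 1.03 without knockout 03, and the dimmer Aplnr probe set differed by 0.97. With the replicate block the unadjusted p was 0.0032 and the adjusted p 0.621. Apln, which encodes apelin, a tip-cell ligand that hypoxia can induce, read 234, 200.4 and 439 in controls and 518, 243 and 257 in knockouts. The groups overlapped, knockout 01 was the highest array, and the difference was 0.22 (95% interval from -0.75 to 1.18), with opposite signs in the pairs numbered 01 and 03, and -0.13 without knockout 01.

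Receptors of BMP9 and Notch signals showed no common direction. Eng, which encodes the co-receptor endoglin, read 441, 437 and 475 in controls and 943, 341 and 507 in knockouts. Knockout 01 alone stood apart, and without it the difference of 0.28 was -0.12. Acvrl1, which encodes the type I receptor ALK1, differed by -0.24 (SE 0.62), with its lowest signal, 46.6, on knockout 01; without that array it was 0.39. Notch4, the endothelial Notch receptor, differed by 0.72 and Dll4, the tip-cell Notch ligand, by -0.18, and the intervals of both crossed 0.

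Among genes of vessel tone and growth signals, Pdgfb had the largest difference. Pdgfb encodes the growth factor by which endothelium recruits pericytes, and it read 228, 111 and 108 in controls and 247, 203 and 214 in knockouts. The knockouts were close together and above controls 02 and 03, while control 01 lay within their range. The difference was 0.66 (SE 0.42), and -0.15 by its second probe set. Nos3, the endothelial nitric oxide synthase, read 198, 138 and 197 in controls and 219, 281 and 168 in knockouts, and differed by 0.32 (95% interval from -0.53 to 1.16). S1pr1, a receptor that tightens the endothelial barrier, differed by 0.12, and by -0.17 without knockout 03. Ednrb, an endothelin receptor that other islet and nerve cells also express, differed by 0.05, by -0.23 without knockout 03, and its other probe sets by -0.72 and 0.22. Edn1, which encodes the vasoconstrictor endothelin-1, was below the array median on all 6 arrays, with signals of 12.5, 94.8 and 34.3 in controls and 35.2, 52.5 and 60.6 in knockouts. So was Rasip1, a GTPase-pathway protein needed for vessel lumens, with signals from 13.1 to 89.7. Their differences of 0.49 and -1.27 rest on those dim values, and that of Edn1 was -0.24 without control 01.

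All 4 transcription factors had positive differences, and knockout 03 was the highest array for 3 of them. Erg, the ETS factor that maintains endothelial identity, read 218, 227 and 265 in controls and 288, 274 and 756 in knockouts. Knockouts 01 and 02 were just above control 03, and knockout 03 was well above both. The difference was 0.73 (SE 0.42, limma adjusted p 0.9998) and 0.25 without knockout 03. With quantile normalization the groups of Erg and of Vwf overlapped. The SoxF factors act in arterial and lymphatic specification. Sox7 read 130.4, 87.0 and 90.8 in controls and 206, 127 and 352 in knockouts, a difference of 1.05 (SE 0.49), and was higher in 3 of 3 pairs, with control 01 just above knockout 02. Sox17, also measured by an _x_at set, differed by 0.65, and by -0.13 without knockout 03. Sox18 read 879.7, 404 and 144 in controls and 502, 811 and 479.7 in knockouts, where control 01 was the highest and control 03 the lowest array, and its difference of 0.65 was -0.04 without control 03.

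**Figure D4:**
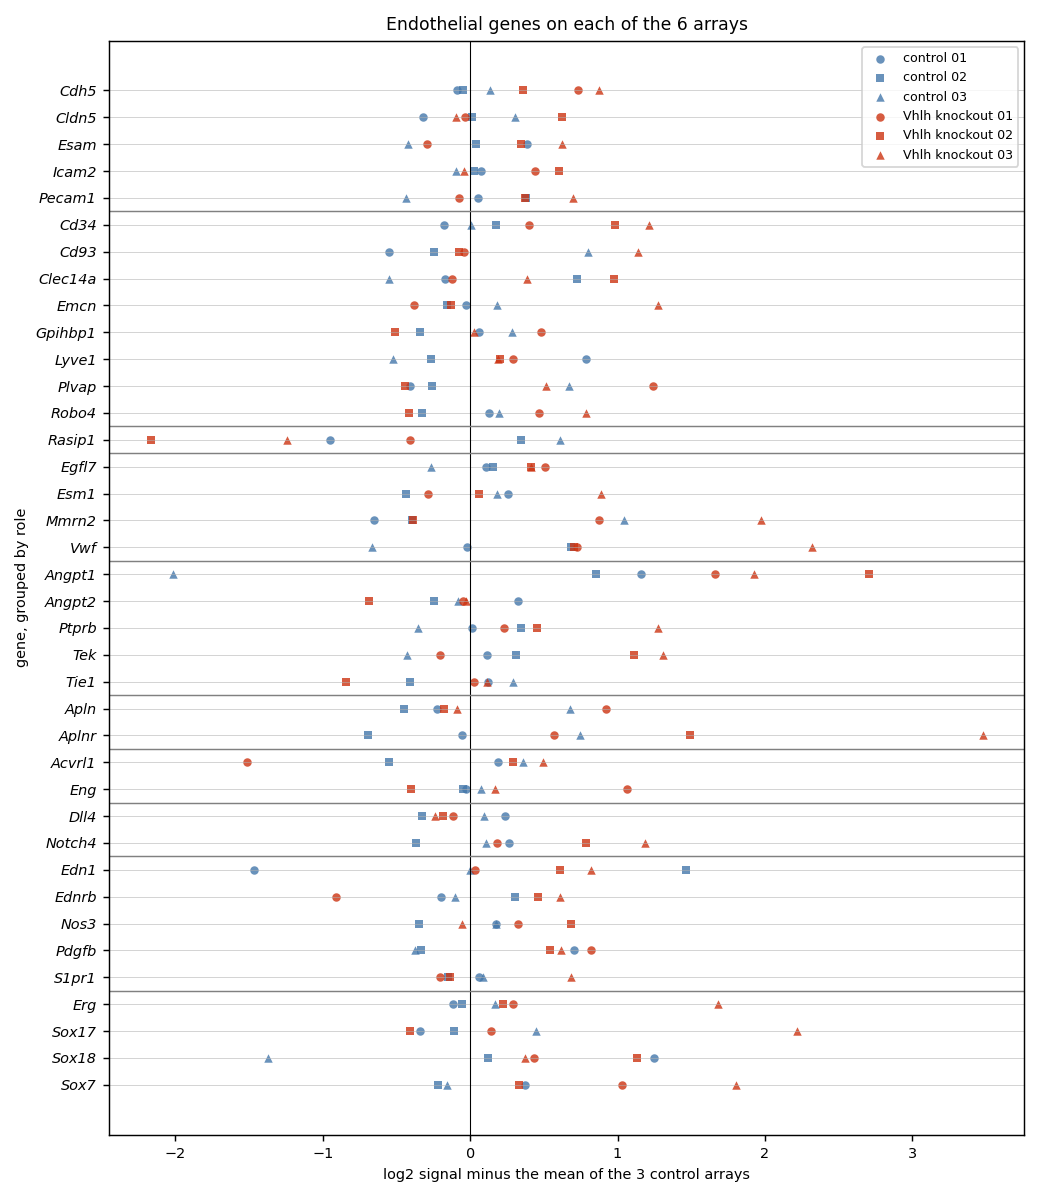
Log2 signal of each of the 38 endothelial genes on the 6 arrays, relative to the mean of the 3 control arrays, with genes grouped by role (grey lines), controls in blue, knockouts in red and symbols for the sample number. Knockout 03 was the highest array for 20 of the 38 genes, beside 17.02% of all genes measured, and the lowest for 0 of the 38.

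Further genes of endothelium and vessels, from 4 lists that hold none of the 38, were mostly above 0 as well. Of 99 such genes 98 were measured and 83 tested. With limma 0 of the 83 passed an adjusted p of 0.05 in either direction, and 11 had an unadjusted p under 0.05, all higher, beside 1.99% of genes tested; with the replicate block these counts were 0 and 23, beside 3.65% higher. A positive difference was found for 87 of the 98, beside 51.6% of all genes measured, with a median of 0.50. Every knockout exceeded every control for 18 of the 98, beside 4.52% of all genes. By list, the genes with a positive difference were 36 of 38 for other surface proteins, 24 of 29 for other signalling genes, 19 of 21 for other transcription factors and 8 of 10 for vessel basement membrane. The list medians were 0.53, 0.43, 0.53 and 0.32. Without both arrays numbered 03 they were 0.25, 0.36, 0.59 and 0.23. The basement membrane medians were 0.03, -0.05 and 0.95 in the pairs numbered 01, 02 and 03.

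The lowest p in these lists belonged to Hey1, a transcriptional target of Notch. It read 153, 164 and 170.5 in controls and 420.4, 324 and 383 in knockouts, a 2.31-fold ratio and a log2 difference of 1.20 (SE 0.31, limma adjusted p 0.9998). The signals within each genotype were close together, and each knockout was far above the controls. Id3, a target of BMP signals, read 244, 231 and 193 in controls and 362, 457 and 403 in knockouts, and differed by 0.87 (SE 0.29). S1pr3, a sphingosine phosphate receptor, differed by 0.95 and Pdpn, a glycoprotein of lymphatic vessels and fibroblasts, by 1.12, also without overlap.

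Kdr, the main VEGF receptor, read 3652, 3767 and 3297 in controls and 7130.1, 5129.5 and 4673 in knockouts. All 3 knockouts exceeded all controls, and the difference was 0.64 (SE 0.26) with 0.97, 0.45 and 0.50 in the pairs, largest in the pair numbered 01. Flt1, another VEGF receptor, differed by 0.66 and Cav1, the coat protein of caveolae, by 0.75, both with overlapping groups. Of the transcription factors, Epas1, the gene of HIF-2 alpha, was at 0.69, Lmo2, a hematopoietic and endothelial co-factor, at 0.91 and Mef2c at 0.68, each without overlap. In the basement membrane list Lamb1 (0.89), Nid1 (0.72) and Sparc (0.53) had the lowest p, and their groups overlapped.

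The median difference of the 38 genes was above 0 in each pair and largest in the pair numbered 03. It was 0.31, 0.26 and 0.73 in the pairs numbered 01, 02 and 03, with 24, 28 and 30 genes above 0. Over all genes measured the medians were 0.02, 0.05 and -0.01, with 9305, 9800 and 9025 of 18193 genes above 0. Without knockout 03, 26 of the 38 were above 0 beside 53.0% of all genes, the median was 0.31, and 0 had an unadjusted limma p under 0.05. Without both arrays numbered 03, the count was again 26, beside 52.4% of all genes, and the median was 0.28.

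Markers of other cells also differed, by amounts that varied between pairs. Acinar markers differed by medians of 0.08, 0.31 and -3.32 in the 3 pairs numbered 01, 02 and 03. Fibroblast and matrix genes were higher by 0.89, 0.22 and 2.64, with 13 of 13 genes above 0 and a summed signal of 3381 to 7328 in controls and 5614 to 26442 in knockouts. Pericyte and smooth muscle genes were higher by 0.18, 0.62 and 0.71, with 10 of 12 above 0 and a summed signal of 8791 to 9368 against 10919 to 16557. Schwann and neural genes were higher by 0.22, 0.70 and 2.14, with 6 of 7 above 0. Beta-cell markers were at -0.08, 0.02 and -0.35, with 3 of 9 above 0. The part of these cell types in the endothelial differences was not tested.

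Blood cells share some of the 38 genes, among them Pecam1, Vwf, Cd34 and Tek. Leukocyte markers had 10 of 15 genes above 0, with summed signals of 4722 to 9147 in controls and 5422 to 8676 in knockouts, which overlap. Platelet and megakaryocyte markers had 4 of 6 above 0, with 457 to 730.1 and 515 to 1502, and 3 of the 6 were bright enough to test. Of 4 erythroid genes 0 were bright enough to test. No marker was listed at a signal of 0.

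**Figure D5:**
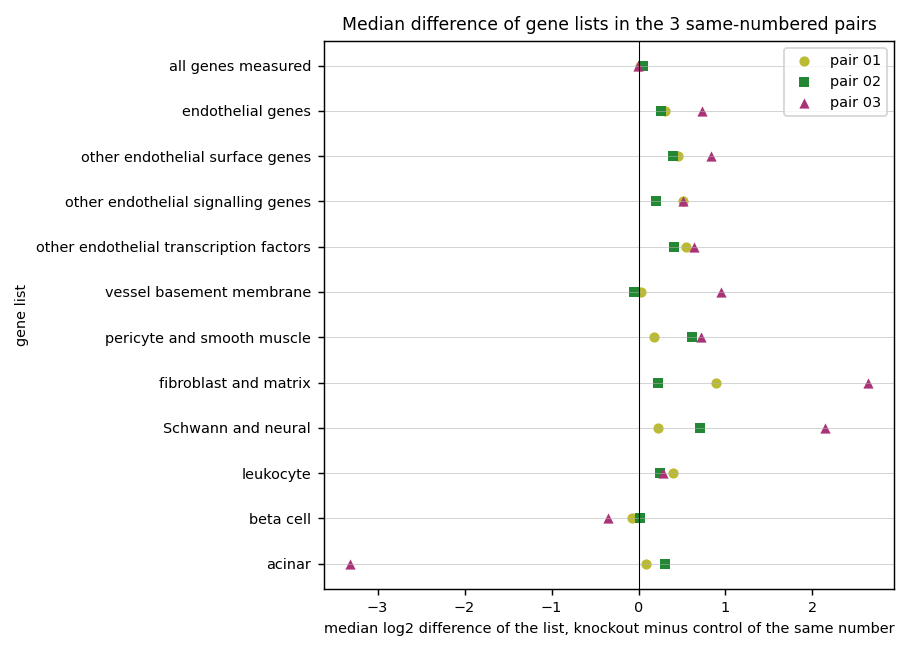
Median log2 difference of each gene list, knockout minus the control of the same number, in the pairs numbered 01, 02 and 03. The endothelial lists are above 0 in each pair except vessel basement membrane in the pair numbered 02, while fibroblast and matrix genes (2.64) and acinar genes (-3.32) move most in the pair numbered 03.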

How the data were processed

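The authors deposited linear MAS5 signal intensities, for which the submitters' processing notes name GCOS 1.4 and MAS5. Per the labels' protocols, RNA was amplified in a repeated-cycle procedure before hybridization. All arrays had a 2% trimmed mean of 500.003, which is the authors' scaling. Detection calls and scanner files were not used here, and precision is limited by the number of arrays.

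Of 45101 probe sets, 64 control probe sets were left out, and 34945 carried a single gene symbol, 932 several and 9160 no symbol. Names were checked through Entrez identifiers in a RefSeq table (GRCm38.p6; 34741 matched, 0 changed). Of the 18193 genes, those outside the endothelial list were represented as its members were, except that probe sets ending in _x_at were left out where another existed. Log2 signals were fitted over 11610 genes with limma 3.58.1 in R 4.3.3 (statmod 1.5.0). An intensity trend was used, with Benjamini-Hochberg adjustment over all genes tested. This main fit had no term for the sample number, so it left out the pairing. SEs, intervals and p-values come from the main fit unless the replicate block, which has that term, or another setting is named. On simulated data the procedure called 4 of 50 genes the right way at a log2 size of 1 and 23 of 50 at 2. At sizes of 3 and 4 it called 33 and 44 of 50, with 6 false calls over all sizes. Differences as small as the median of the 38 endothelial genes were not simulated. Alternatives were the replicate block, arrays left out, other filters on dim probe sets, quantile normalization, a pseudocount of 32, other probe set rules, array weights and no trend.

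Members, gene lists and settings were chosen with earlier results of these data known. The genes given in full were the 8 of lowest p and 16 chosen by role; the other lists gave Kdr, Flt1, Epas1 and the 3 of lowest p in each. Deviations from the group means correlated at 0.15, 0.42 and 0.43 in the pairs numbered 01, 02 and 03. All were over 0.1, so the numbers were taken to pair the samples, which also share age and recorded sex. Control 01 with knockout 02 reached 0.14, so this level did not set the pair numbered 01 apart.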

Additional observations from a re-analysis of the deposited data

How the results depend on the processing

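The count of endothelial genes past an adjusted limma p of 0.05, and that of the 4 other endothelial lists, was 0 under all 16 alternatives run, among them the replicate block, in which the numbers pair the samples. The median log2 difference of the 38 genes stayed above 0, from 0.28 without both arrays numbered 03 to 0.53 without knockout 01. The number of genes with every knockout signal above every control signal was 6; with 1 array left out it was 8 to 11, where 7.91% to 10.4% of all genes met this, and without both arrays numbered 03 it was 12, where 17.4% did. Averaging all probe sets of each gene made it 3, beside 4.60% of all genes, with 1 gene lower on every knockout, beside 3.62%, and quantile normalization made it 4, beside 4.27%. The number lower on every knockout was 0 to 2 with 1 array left out, where 5.89% to 8.66% of all genes were. Settings that could not alter these counts, such as the block, were not repeated for them.

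Of 756 values of 51 named genes under the alternatives, 32 changed sign, the cause of which was not tested. With 1 array left out, log2 differences with a change of sign ranged over -0.24 to 0.25 for Gpihbp1, -0.24 to 1.22 for Edn1, -0.23 to 0.53 for Ednrb, -0.13 to 0.56 for Apln, -0.039 to 1.27 for Sox18, -0.032 to 0.62 for Lyve1, -0.12 to 0.62 for Eng, -0.61 to 0.39 for Acvrl1, -0.44 to 0.07 for Tie1, -0.067 to 0.31 for Cldn5, -0.25 to 0.57 for Emcn, -0.13 to 1.18 for Sox17, -0.11 to 0.48 for Esm1, -0.17 to 0.27 for S1pr1 and -0.057 to 0.74 for Cd93. Without both arrays numbered 03 the values were -0.068 for Pecam1, -0.19 for Esam, -0.16 for Emcn, -0.024 for Esm1, -0.012 for Lyve1, -0.12 for S1pr1, 0.13 for Gpihbp1 and -0.28 for Ednrb. Averaging its probe sets put Ednrb at -0.15, Lyve1 was at -0.057 with array weights and Gpihbp1 at 0.0011 with 32 units added.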

Other observations

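Other surface proteins of endothelium whose knockout signals all exceeded the control signals were Kdr, Pdpn, Adgrf5, Podxl, Myct1, Calcrl, Tm4sf1 and Adgrl4. The last 6 were named after their values were seen. That makes 8 of the 38 genes measured in the list of other surface proteins, beside 4.52% of all genes measured. The rest of that list had overlapping groups. Podxl, which encodes the sialomucin podocalyxin, read 1353, 1417 and 1962 in controls and 2049, 2367 and 2794 in knockouts, a log2 difference of 0.62 (SE 0.28). Adgrf5, an adhesion receptor, read 1569, 1647 and 2235 in controls and 3067, 2262 and 3047 in knockouts and differed by 0.62 (SE 0.28). Calcrl, the receptor chain shared by adrenomedullin and CGRP, read 477, 436 and 536 in controls and 574, 631 and 1156 in knockouts and differed by 0.64 (SE 0.33). Myct1 differed by 0.73, Tm4sf1 by 0.58 and Adgrl4 by 0.44. None passed limma's adjusted p, which was 0.9998 for each.

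The adhesion molecules of inflamed endothelium were dim or mixed. Selp and Sele, the P- and E-selectin genes, were too dim to test. Icam1 differed by 0.71 (95% interval from -0.48 to 1.91). It exceeded the array median on 1 control and 3 knockout arrays, so it entered the test mainly through its knockout signals. Vcam1 differed by -0.51 (95% interval from -2.13 to 1.11), with its lowest signal, 40.8, on knockout 01. Of the lymphatic genes measured, Lyve1, Flt4, Prox1 and Pdpn, 4 of 4 had a positive difference, beside 51.6% of all genes measured. Lyve1 is also among the 38 endothelial genes, and the others are in the further lists. The difference of Lyve1 was -0.01 without both arrays numbered 03, and Pdpn alone was without overlap. Prox1 is also a gene of islet endocrine cells.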
